A study of Mus musculus with 15 samples.

Results

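The genes that move glucose and lactate across cell membranes and set the pace of glycolysis were followed in mouse prefrontal forebrain cortex, in a conditional Presenilin double knockout and in wild type, with and without nicotine. The set was 10 genes chosen by gene symbol: the glucose and fructose carriers Slc2a1, Slc2a3 and Slc2a5, the monocarboxylate carriers Slc16a1 and Slc16a7, the lactate dehydrogenase subunits Ldha and Ldhb, the hexokinases Hk1 and Hk2, and Pfkfb3. All 10 were found among the 21878 gene rows of the expression tables, and all 10 were among the 12728 genes tested. RNA-seq libraries came from 3 DKO mouse samples on nicotine, 4 DKO on water, 4 WT on nicotine and 4 WT on water, 15 in all. DKO stands for the conditional Presenilin double knockout and WT for wildtype C57BL6/J. Exposure began at 8 months of age and lasted 3 months, with nicotine at 100 µg/ml in the drinking water or with water alone. The sources used here name neither the promoter that drives the conditional deletion nor the sex of the mice. Nothing in the labels ties each numbered library to its own mouse, so the p-values describe library-to-library spread, which may be technical.

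Each library held 16334915 to 19469258 reads in genes. The targeted gene Psen2, which encodes a catalytic subunit of gamma-secretase, averaged 1.57 ± 0.199 FPKM in DKO nicotine (SD, n = 3), 1.51 ± 0.179 FPKM in DKO water, 6.48 ± 0.571 FPKM in WT nicotine and 6.44 ± 0.770 FPKM in WT water (SD, n = 4 each). FPKM is the number of fragments per length of gene model and per total of reads in genes. Pan-neuronal markers summed to 2274 to 2474 FPKM in DKO nicotine, 2283 to 2435 FPKM in DKO water, 2711 to 2884 FPKM in WT nicotine and 2740 to 2873 FPKM in WT water, so all 15 libraries carried abundant neuronal RNA. The Y-linked gene Ddx3y was under 1 FPKM in 4 of 4 WT nicotine libraries and in 1 of 3 DKO nicotine libraries (replicate 2), and at 1 FPKM or more in 2 of 3 DKO nicotine, 4 of 4 DKO water and 4 of 4 WT water libraries. In WT mice, nicotine and the absence of Y-linked RNA therefore cannot be told apart. On nicotine, genotype and Y-linked RNA were also largely mixed, since 2 of 3 DKO and 0 of 4 WT libraries carried it. The interaction of genotype and nicotine shares this limit.

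Brain cells take up glucose through facilitative carriers of the GLUT family, trap it by phosphorylation with hexokinase, and break it down to pyruvate by glycolysis. Pyruvate either enters mitochondria or is reduced to lactate by lactate dehydrogenase, and lactate leaves and enters cells through monocarboxylate transporters. In cortex, GLUT1 (Slc2a1) is known for the blood-brain barrier and astrocytes, GLUT3 (Slc2a3) for neurons and GLUT5 (Slc2a5), a fructose carrier, for microglia.

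Windows of 250 bases before the RefSeq starts (GRCm38.p6) were available for 8 of the 10 genes, 11 windows in all. They are printed for 3 of the genes called in both genotype comparisons (Hk2, Slc16a1 and Slc2a5), for the gene that differed with nicotine (Slc2a1), and for Ldha, whose window held the most matches of the 11 while its RNA was called in no comparison. Each is written 5′ to 3′ along the gene's own strand. Capitals mark ACGTG and GCGTG on either strand (CACGT and CACGC when read on the opposite strand), the core letters known from sites of hypoxia-inducible factors. A CACGTG holds 2 overlapping matches to ACGTG. The windows were chr6:82774455-82774704 (minus strand) for Hk2, chr3:104638414-104638663 (plus strand) for Slc16a1, chr4:150119094-150119343 (plus strand) for Slc2a5, chr4:119108495-119108744 (plus strand) for Slc2a1 and chr7:46845554-46845803 (plus strand) for the first of the available Ldha windows.
Hk2: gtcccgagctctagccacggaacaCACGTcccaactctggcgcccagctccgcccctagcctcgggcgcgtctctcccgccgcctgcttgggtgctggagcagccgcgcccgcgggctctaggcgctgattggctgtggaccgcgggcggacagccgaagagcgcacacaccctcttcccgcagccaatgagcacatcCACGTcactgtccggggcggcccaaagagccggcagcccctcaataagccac
Slc16a1: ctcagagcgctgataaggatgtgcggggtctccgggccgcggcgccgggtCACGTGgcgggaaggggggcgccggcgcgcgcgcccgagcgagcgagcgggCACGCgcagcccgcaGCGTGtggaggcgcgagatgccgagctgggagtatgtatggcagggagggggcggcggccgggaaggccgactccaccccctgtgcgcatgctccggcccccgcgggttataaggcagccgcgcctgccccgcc
Slc2a5: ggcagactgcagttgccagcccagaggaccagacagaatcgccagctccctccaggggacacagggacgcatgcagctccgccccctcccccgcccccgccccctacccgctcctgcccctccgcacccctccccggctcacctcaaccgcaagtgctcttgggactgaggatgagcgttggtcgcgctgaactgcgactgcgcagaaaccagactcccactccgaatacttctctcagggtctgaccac
Slc2a1: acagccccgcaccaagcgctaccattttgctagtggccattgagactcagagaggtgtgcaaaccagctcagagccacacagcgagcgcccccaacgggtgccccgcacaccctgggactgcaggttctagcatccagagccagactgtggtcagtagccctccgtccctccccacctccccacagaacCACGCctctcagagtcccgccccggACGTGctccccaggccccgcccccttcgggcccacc
Ldha: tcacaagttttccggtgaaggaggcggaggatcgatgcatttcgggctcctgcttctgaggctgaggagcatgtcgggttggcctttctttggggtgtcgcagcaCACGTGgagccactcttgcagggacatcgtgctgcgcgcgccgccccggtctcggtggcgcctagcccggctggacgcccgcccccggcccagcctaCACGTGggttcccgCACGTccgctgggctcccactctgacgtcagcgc

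The Hk2 window held 2 matches to ACGTG and 0 to GCGTG. The Slc16a1 window held 2 of each, the ACGTG pair coming from a single CACGTG. Slc2a1 held 1 of each, the Ldha window 5 to ACGTG and 0 to GCGTG, and Slc2a5 none of either in these letters. Of the 11 windows, 9 held either motif, covering 7 of the 8 genes. Among all 32851 promoter windows of that length, 16.6% held ACGTG, 28.2% held GCGTG, 38.6% held either and 6.0% held CACGTG. The median window held 6 CpG at 52.4% G and C, while the windows of Hk2 (25 CpG), Slc16a1 (37), Slc2a5 (15), Slc2a1 (13) and the first available one of Ldha (25) held more. A match describes letters only.

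The 10 genes spanned a wide range of abundance per length. Averaged over all 15 libraries, Ldhb stood at 389.9 FPKM, Ldha at 147 FPKM, Hk1 at 103 FPKM, Slc2a3 at 38.5 FPKM, Slc2a1 at 37.5 FPKM, Slc16a1 at 9.30 FPKM, Pfkfb3 at 7.59 FPKM, Slc16a7 at 4.31 FPKM, Slc2a5 at 1.52 FPKM and Hk2 at 1.43 FPKM. Library values overlapped between the neighbours Slc2a3 and Slc2a1, Slc16a1 and Pfkfb3, and Slc2a5 and Hk2, so those neighbours were not ordered beyond their spread. The least abundant, Slc2a5 and Hk2, rested on 43 to 138 and 71 to 229 reads per library, while Ldhb rested on 8065 to 10123.

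**Figure D1:**
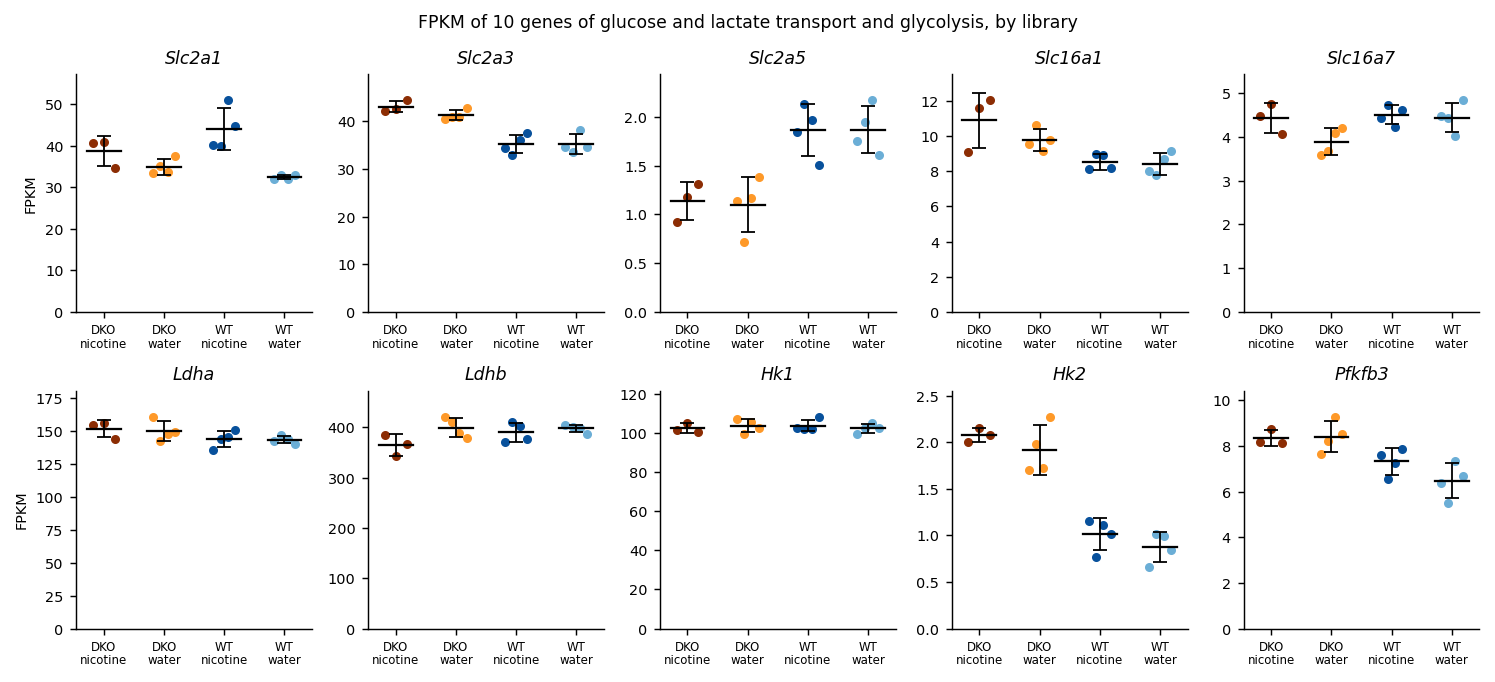
FPKM (linear axis from 0) of the 10 genes in each library, with groups from left to right DKO nicotine, DKO water, WT nicotine and WT water; points are libraries, and lines and bars the group mean and SD. Hk2 and Slc2a3 were higher and Slc2a5 lower in DKO than in WT libraries without overlap in both drinking arms, and Slc2a1 was highest in WT nicotine.

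The comparison of DKO with WT mice on water asks how the knockout differs without nicotine. The comparison of the genotypes on nicotine asks this of treated mice, but there the genotypes also differed in Y-linked RNA. Genes are called where limma gave an adjusted p (Benjamini-Hochberg, over the 12728 genes) below 0.05. On water, 4 of the 10 genes were called higher (Hk2, Pfkfb3, Slc2a3 and Slc16a1) and 1 lower (Slc2a5), where 25.5% of all genes tested were called higher and 12.4% lower (38% in either direction). On nicotine, 3 were called higher (Hk2, Slc2a3 and Slc16a1) and 1 lower (Slc2a5), against 24.6% and 11% of all genes tested (35.7% in either direction). The members' share of calls was thus near that of all genes. The median log2 change was 0.08 on water and 0.03 on nicotine for the 10 genes, and 0.05 and 0.06 for all tested genes. In all genes, 67.2% of the calls on water and 69% of those on nicotine were higher as deposited, against 50.9% and 49.1% after median-of-ratios rescaling. Under that rescaling 3 members were called higher and 2 lower on water, and 3 higher and 3 lower on nicotine. All log2 changes were taken after adding 1 to the FPKM, so they are too small for scarce genes.

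**Figure D2:**
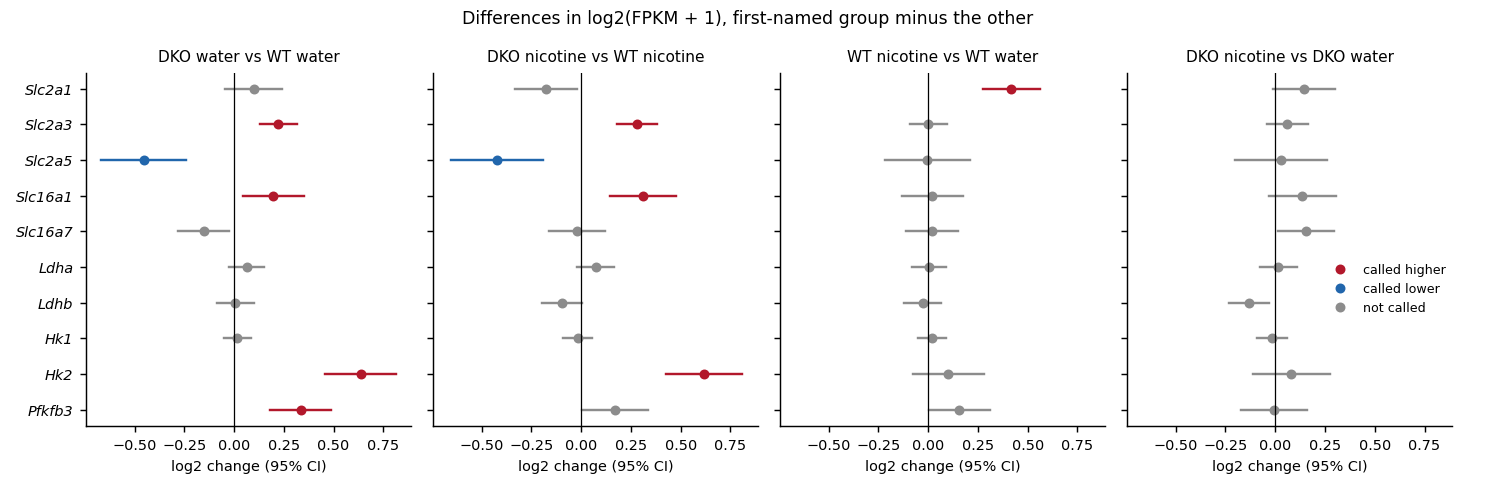
Log2 change on the log2(FPKM + 1) scale of the 10 genes in the 4 comparisons of groups; points are limma estimates, bars their 95% confidence intervals, and red (higher) and blue (lower) points have an adjusted p under 0.05. Hk2 had the largest positive change of the 10 in both genotype comparisons (0.64 on water and 0.62 on nicotine), Slc2a5 the largest negative (-0.46 and -0.42), and Slc2a1 was called with nicotine in WT (0.42).

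Among the carriers of hexoses, RNA of the glucose transporter Slc2a3 rose and that of the fructose carrier Slc2a5 fell in whole DKO cortex. Slc2a3 (gene 20527, chromosome 6, 122727809 to 122802363) stood at 42.2, 42.7 and 44.4 FPKM in DKO nicotine, and at 34.5, 33.1, 36.1 and 37.6 FPKM in WT nicotine. It stood at 40.6, 40.8, 40.8 and 42.8 FPKM in DKO water, and at 34.6, 33.6, 38.3 and 34.7 FPKM in WT water. Every DKO library lay above every WT library. The ratio of means was 1.22 on nicotine (log2 change 0.28, SE 0.048, limma adjusted p = 0.000247) and 1.17 on water (0.22, SE 0.044, adjusted p = 0.000871). Over the same libraries excitatory neuron markers were called lower for 7 of 11 in each drinking arm and pan-neuronal markers for 4 of 6 on nicotine and 5 of 6 on water. Inhibitory neuron markers were called higher for 5 of 8 on nicotine and 8 of 8 on water, and 1 of the 11 excitatory markers, Cux2, was called higher on nicotine. Microglia markers were called higher for 11 of 14 on nicotine and 13 of 14 on water, and lower for none. Whole tissue does not show in which cells Slc2a3 rose. The part of these markers in the Slc2a3 difference was not tested.

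Slc2a5 (gene 56485, chromosome 4, 150119344 to 150144168) stood at 0.923, 1.17 and 1.31 FPKM in DKO nicotine, and at 1.85, 2.14, 1.97 and 1.50 FPKM in WT nicotine. It stood at 1.13, 0.719, 1.17 and 1.39 FPKM in DKO water, and at 1.75, 1.94, 2.17 and 1.61 FPKM in WT water. The highest DKO library lay below the lowest WT library in each arm. The ratio of means was 0.610 on nicotine (log2 change -0.42, SE 0.11, adjusted p = 0.00655) and 0.589 on water (-0.46, SE 0.10, adjusted p = 0.00203). With a pseudocount of 0.1 in place of 1 the log2 changes were -0.67 and -0.74 and both calls held.

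Microglial markers, in contrast, were called higher in DKO for 11 of 14 on nicotine and 13 of 14 on water, and disease-associated microglia markers for 12 of 12 in each arm. The 14 microglia markers summed to 344 to 429 FPKM in DKO nicotine, 380.4 to 418 FPKM in DKO water, 156 to 174 FPKM in WT nicotine and 159 to 176 FPKM in WT water. In whole tissue, more or fewer cells of a type and more or less RNA per cell cannot be told apart. The log2 ratio of Slc2a5 to the mean of the 14 markers was -3.11 to -2.84 in DKO nicotine, -3.40 to -2.80 in DKO water, -1.71 to -1.46 in WT nicotine and -1.69 to -1.42 in WT water, with no overlap between genotypes. The DKO minus WT difference was -1.41 (exact two-sided permutation test within drinking arm over 15 libraries, p = 0.000408, the smallest it can give; adjusted over 4 ratios, 0.000816). So Slc2a5 and the microglial markers moved apart with genotype, Slc2a5 down and the markers up. Both had already separated by genotype in opposite directions. The ratio and its p therefore restate this and are no further support.

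Slc2a1 (gene 20525, chromosome 4, 119108745 to 119137330), the carrier of the blood-brain barrier, was called in neither genotype comparison. It stood at 40.8, 40.9 and 34.6 FPKM in DKO nicotine, and at 40.3, 40.0, 50.9 and 44.8 FPKM in WT nicotine. It stood at 33.4, 35.1, 33.8 and 37.6 FPKM in DKO water, and at 32.1, 33.0, 32.1 and 33.0 FPKM in WT water. The groups overlapped on nicotine and did not on water. The log2 change was -0.18 on nicotine (95% interval -0.33 to -0.02, adjusted p = 0.0727) and 0.10 on water (-0.05 to 0.24, adjusted p = 0.274). On nicotine it was called lower after rescaling (-0.24, adjusted p = 0.0167), without WT nicotine replicate 1 (adjusted p = 0.0405) and without WT nicotine replicate 2 (adjusted p = 0.0345).

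Endothelial markers were called higher in DKO for 4 of 17 on nicotine and 11 of 17 on water. Of all genes tested, 24.6% and 25.5% were called higher, so the nicotine share was near that of all genes. The endothelial markers summed to 194 to 216 FPKM in DKO nicotine, 194 to 234 FPKM in DKO water, 163 to 186 FPKM in WT nicotine and 156 to 167 FPKM in WT water. The log2 ratio of Slc2a1 to their mean was 1.76 to 2.13 in DKO nicotine, 1.68 to 1.92 in DKO water, 2.09 to 2.46 in WT nicotine and 1.98 to 2.04 in WT water. These ratios overlapped between genotypes on nicotine and not on water. The DKO minus WT difference was -0.24 (exact two-sided permutation test, p = 0.00367; adjusted over 4 ratios, 0.0049), and on water alone -0.19 (exact p = 0.0286, the smallest that 4 against 4 allows). The pooled difference also holds the nicotine arm, where the genotypes differed in Y-linked RNA. On water many endothelial markers had already been called higher in DKO. The ratio and its p therefore largely restate the marker difference and are no further support for a change of Slc2a1. Astrocyte markers, of a cell type that also uses this carrier, were called higher for 9 of 12 on nicotine and 12 of 12 on water. Across libraries within groups, Slc2a1 did not follow the endothelial markers closely: Pearson r of deviations from group means ranged from -0.63 to 0.61 over the 17 markers, with a median of -0.09 over 15 libraries. The libraries share depth and tissue composition, so these r are descriptions.

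Of the lactate carriers, Slc16a1 (MCT1; gene 20501, chromosome 3, 104638664 to 104658462), which moves lactate and ketone bodies in endothelium and glia, rose in DKO. It stood at 9.11, 11.6 and 12.01 FPKM in DKO nicotine, and at 8.12, 8.95, 8.90 and 8.15 FPKM in WT nicotine. It stood at 9.55, 10.6, 9.16 and 9.77 FPKM in DKO water, and at 7.99, 7.81, 8.67 and 9.12 FPKM in WT water. No DKO library overlapped a WT library of its arm, although the closest, 9.16 and 9.12 FPKM on water, nearly met. The ratio of means was 1.28 on nicotine (log2 change 0.31, SE 0.079, adjusted p = 0.00527) and 1.16 on water (0.20, SE 0.073, adjusted p = 0.0417). The water call was lost after rescaling (0.15, adjusted p = 0.121), with no filter on low genes (adjusted p = 0.0643) and without any of 6 libraries (WT water 1, 2 and 3, and DKO water 1, 2 and 4; adjusted p up to 0.129). Within groups, Slc16a1 correlated positively with 16 of the 17 endothelial markers (median r 0.34, range -0.77 to 0.61, 15 libraries). As for Slc2a1, the libraries share depth and tissue composition, so these r are descriptions and not separate agreements. The part of endothelial markers in the Slc16a1 difference was not tested.

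Slc16a7 (MCT2; gene 20503, chromosome 10, 125219270 to 125389586), the high-affinity carrier known for neurons, was not called in either genotype comparison. It stood at 4.48, 4.75 and 4.08 FPKM in DKO nicotine, and at 4.44, 4.73, 4.23 and 4.61 FPKM in WT nicotine. It stood at 3.59, 3.67, 4.09 and 4.21 FPKM in DKO water, and at 4.47, 4.42, 4.03 and 4.83 FPKM in WT water. The groups overlapped in both arms. The log2 change was -0.02 on nicotine (95% interval -0.16 to 0.12) and -0.15 on water (-0.28 to -0.02, adjusted p = 0.0603). The water difference was called lower after rescaling (-0.20, adjusted p = 0.0235), without the intensity trend (adjusted p = 0.0482), by limma voom on recovered reads (-0.19, adjusted p = 0.0295), without WT water replicate 3 (adjusted p = 0.0319) and without DKO water replicate 4 (adjusted p = 0.0387). Slc16a1 held 70.9% ± 3.83 of the summed FPKM of the pair in DKO nicotine (SD, n = 3), 71.5% ± 2.41 in DKO water, 65.4% ± 1.69 in WT nicotine and 65.4% ± 2.03 in WT water (SD, n = 4 each).

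Of the hexokinases, which phosphorylate glucose and so hold it in the cell, the inducible and scarce form rose while the abundant form was not called. Hk2 (gene 15277, chromosome 6, 82725025 to 82774454) stood at 2.00, 2.15 and 2.08 FPKM in DKO nicotine, and at 1.16, 0.769, 1.11 and 1.01 FPKM in WT nicotine. It stood at 1.70, 1.98, 1.73 and 2.27 FPKM in DKO water, and at 0.664, 1.01, 0.989 and 0.842 FPKM in WT water. The lowest DKO library, 1.70 FPKM, lay above the highest WT library, 1.16 FPKM. The ratio of means was 2.05 on nicotine (log2 change 0.62, SE 0.091, adjusted p = 6.42e-05) and 2.19 on water (0.64, SE 0.084, adjusted p = 1.68e-05). With a pseudocount of 0.1 the log2 changes were 0.98 and 1.05 and both calls held. Reads behind these values were few, 71 to 229 per library.

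Hk1 (gene 15275, chromosome 10, 62268855 to 62379920), the main hexokinase of brain, stood at 101 to 105 FPKM in DKO nicotine, 99.6 to 107 FPKM in DKO water, 102 to 108.0 FPKM in WT nicotine and 99.6 to 105 FPKM in WT water. These ranges overlapped throughout, and the 95% interval of the log2 change was -0.09 to 0.06 on nicotine and -0.05 to 0.09 on water. Hk2 made up 1.99% ± 0.0468 of the summed FPKM of Hk1 and Hk2 in DKO nicotine (SD, n = 3), 1.82% ± 0.285 in DKO water, 0.966% ± 0.168 in WT nicotine and 0.847% ± 0.142 in WT water (SD, n = 4 each). The log2 ratio of Hk2 to Hk1 was higher in DKO by 0.63 (exact two-sided permutation test, p = 0.000408; adjusted over 4 ratios, 0.000816), with DKO libraries at -5.33 to -4.99 and WT libraries at -5.92 to -5.59. As Hk2 had already separated and Hk1 was nearly level, this ratio restates the Hk2 difference. Hk2 is also known in microglia, whose markers moved in the same direction as given above; their part in the Hk2 difference was not tested.

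**Figure D3:**
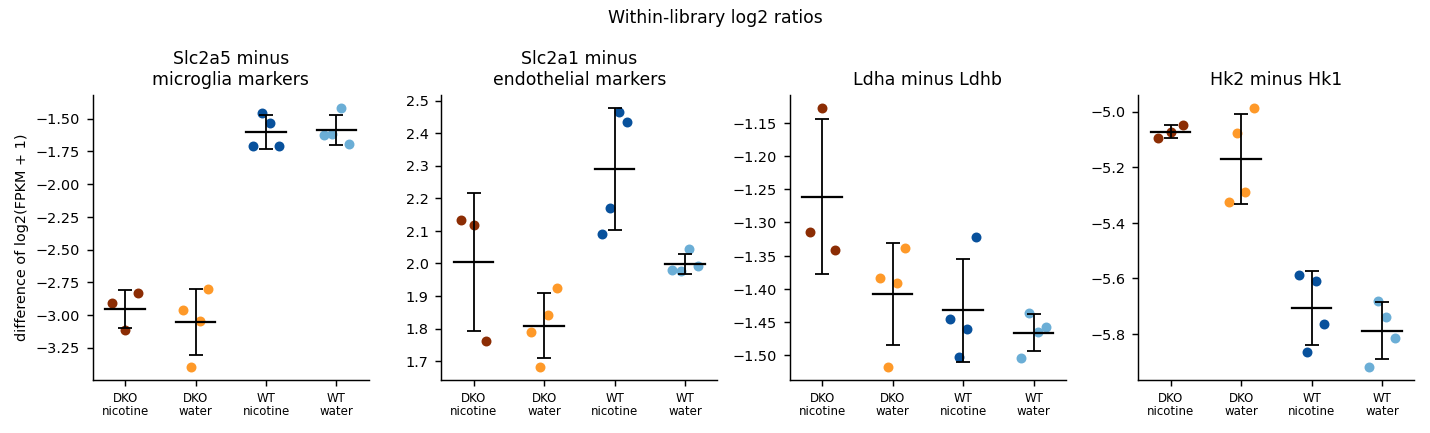
Log2 ratios per library, from log2(FPKM + 1), of Slc2a5 to the microglia markers, Slc2a1 to the endothelial markers, Ldha to Ldhb and Hk2 to Hk1, with groups from left to right DKO nicotine, DKO water, WT nicotine and WT water; points are libraries, and lines and bars the group means and SD. DKO and WT libraries separated fully for the Slc2a5 and Hk2 ratios and overlapped for the Ldha ratio.

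Pfkfb3 (gene 170768, chromosome 2, 11471430 to 11554071) makes fructose 2,6-bisphosphate, the activator of phosphofructokinase, and so sets the pace of glycolysis. It stood at 8.16, 8.76 and 8.13 FPKM in DKO nicotine, and at 7.62, 6.53, 7.25 and 7.88 FPKM in WT nicotine. It stood at 7.63, 8.21, 9.27 and 8.54 FPKM in DKO water, and at 6.36, 5.52, 7.33 and 6.70 FPKM in WT water. DKO libraries lay above WT libraries in each arm without overlap. The difference was called on water (ratio of means 1.30, log2 change 0.33, SE 0.073, adjusted p = 0.00174) and not on nicotine (1.14, log2 change 0.17, 95% interval 0.00 to 0.34, adjusted p = 0.105). The test of the difference between the arms, the interaction, gave -0.16 (95% interval -0.39 to 0.06, adjusted p = 0.81). Across all genes, libraries did not overlap for 37.7% on nicotine and 36.5% on water, so a lack of overlap, seen for 5 of the 10 genes on nicotine and 6 on water, was common.

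The lactate dehydrogenase subunits, which exchange pyruvate and lactate, were not called in any comparison. Ldha (gene 16828, chromosome 7, 46842274 to 46855627), the muscle-type subunit, stood at 154, 156 and 144 FPKM in DKO nicotine, and at 136, 144, 146 and 151 FPKM in WT nicotine. It stood at 161, 143, 148 and 149 FPKM in DKO water, and at 142, 147, 144 and 140.5 FPKM in WT water. The groups overlapped, with a log2 change of 0.07 on nicotine (95% interval -0.02 to 0.17) and 0.06 on water (-0.02 to 0.15). Ldhb (gene 16832, chromosome 6, 142490249 to 142507957), the heart-type subunit, stood at 343 to 385 FPKM in DKO nicotine, 379 to 421 FPKM in DKO water, 372 to 410.4 FPKM in WT nicotine and 388 to 406 FPKM in WT water. Its log2 change was -0.10 on nicotine (95% interval -0.20 to 0.00, adjusted p = 0.117) and 0.01 on water (-0.09 to 0.10); after rescaling it was called lower on nicotine (-0.16, adjusted p = 0.00656).

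Ldha made up 29.4% ± 1.69 of the summed lactate dehydrogenase FPKM in DKO nicotine (SD, n = 3), 27.3% ± 1.04 in DKO water, 27.0% ± 1.07 in WT nicotine and 26.5% ± 0.384 in WT water (SD, n = 4 each). The log2 ratio of Ldha to Ldhb was higher in DKO by 0.11 (exact two-sided permutation test, p = 0.0159; adjusted over 4 ratios, 0.0159), with DKO libraries at -1.52 to -1.13 and WT libraries at -1.50 to -1.32. On water alone the difference was 0.06 (exact p = 0.257), and DKO and WT libraries overlapped in both arms.

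Nicotine was compared with water within each genotype. In WT mice, Slc2a1 was called higher (1 of the 10 genes), where 0.0943% of all genes were called higher and 0.0786% lower (22 genes, 0.173%). The WT nicotine libraries, at 40.0 to 50.9 FPKM, lay above the WT water libraries, at 32.1 to 33.0 FPKM. The ratio of means was 1.35 and the log2 change 0.42 (SE 0.068, 95% interval 0.27 to 0.56, adjusted p = 0.0102). The call held when each of the 15 libraries was left out in turn (log2 change 0.35 to 0.46, adjusted p 0.00478 to 0.0408). Slc2a1 made up 54.1% ± 2.10 of the summed FPKM of the 3 hexose carriers in WT nicotine and 46.7% ± 1.73 in WT water (SD, n = 4 each). Without overlap between groups it was the only member, where 5.8% of all genes had none.

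The same 4 WT nicotine libraries lacked Y-linked RNA, as given above. Of the 17 endothelial markers 1 was called higher with nicotine in WT (Ly6c1), and their sums were 163 to 186 FPKM in WT nicotine and 156 to 167 FPKM in WT water. Of 8 immediate early genes 1 was called lower (Npas4), with a median log2 change of -0.65, and their sums did not overlap, at 179 to 325 FPKM in WT nicotine and 327 to 402 FPKM in WT water. Of 11 clock genes 1 was called higher (Bhlhe41), with a median of 0.17, and their sums did not overlap either, at 226 to 237 FPKM in WT nicotine and 197 to 218 FPKM in WT water. Their part in the Slc2a1 difference was not tested. For the other 9 genes the 95% intervals of the log2 change with nicotine in WT reached no further than -0.22 to 0.31. Pfkfb3 had 7.32 ± 0.586 FPKM in WT nicotine and 6.48 ± 0.755 FPKM in WT water (SD, n = 4 each; log2 change 0.16, unadjusted p = 0.0467, adjusted p = 0.56).

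In DKO mice, limma called 0 of the 10 genes between nicotine and water, where 0.157% of all genes were called (20 genes; 0.102% higher and 0.055% lower), 2 members had an unadjusted p under 0.05, and limma voom called 0. The nicotine and water libraries overlapped for all 10 genes, whereas 10.9% of all genes did not overlap. Slc2a1 averaged 38.8 ± 3.60 FPKM in DKO nicotine (SD, n = 3) and 35.0 ± 1.91 FPKM in DKO water (SD, n = 4), a log2 change of 0.14 (95% interval -0.01 to 0.30, adjusted p = 0.407). Replicates 1 and 2 of DKO nicotine, at 40.8 and 40.9 FPKM, lay above the 4 DKO water libraries, and replicate 3, at 34.6 FPKM, lay among them. Ldhb averaged 365 ± 21.1 FPKM in DKO nicotine and 399.7 ± 19.3 FPKM in DKO water (log2 change -0.13, unadjusted p = 0.0133, adjusted p = 0.244). Slc16a7 averaged 4.44 ± 0.341 FPKM in DKO nicotine and 3.89 ± 0.306 FPKM in DKO water (0.15, unadjusted p = 0.0355, adjusted p = 0.324). Of the 11 clock genes 5 were called higher in DKO nicotine, beside which no member was called.

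Whether nicotine acted differently in the genotypes was tested by the interaction. Limma called 0 of the 10 genes, where 0.0157% of all genes were called (2 genes, both higher), 1 member had an unadjusted p under 0.05, and limma voom called 0. That member was Slc2a1, whose change with nicotine was smaller in DKO than in WT by a log2 difference of -0.27 (SE 0.10, 95% interval -0.49 to -0.06, unadjusted p = 0.0143, adjusted p = 0.657). For Hk2 the interaction was -0.02 (95% interval -0.28 to 0.24) and for Slc2a5 0.03 (-0.28 to 0.35). The genotype difference in these genes was therefore not shown to differ between the drinking arms.

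Other genes of the same pathways were read from 10 lists holding 86 distinct tested genes. In DKO compared with WT, 27 were called higher and 7 lower on nicotine, and 28 higher and 6 lower on water, with a median log2 change of 0.07 and 0.09 (all tested genes, 0.06 and 0.05). In each arm 34 of the 86 were called, or 39.5%, near the 35.7% of all genes on nicotine and 38% on water. By direction, 24.6% of all genes were called higher and 11% lower on nicotine, and 25.5% and 12.4% on water. Counts in the single lists below stand beside these shares. In the comparisons of nicotine with water and in the interaction limma called none of the 86. In those, 8 had an unadjusted p under 0.05 in WT, 11 in DKO and 4 in the interaction. Limma voom called 1, Eno2 in DKO (log2 change -0.14, adjusted p = 0.0399), which was singled out after its value was seen.

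Of 13 glycolytic enzymes, 2 were called higher on nicotine and 6 on water, and none lower, with median log2 changes of 0.03 and 0.09. Aldoc, an aldolase known for astrocytes and also in the astrocyte marker list, averaged 349 ± 8.64 FPKM in DKO water and 268 ± 11.0 FPKM in WT water (SD, n = 4 each). Aldoa, the main aldolase, averaged 775 ± 33.6 FPKM in DKO water and 667 ± 27.0 FPKM in WT water. Pfkm, a phosphofructokinase, averaged 143 ± 4.31 FPKM in DKO water and 134 ± 2.04 FPKM in WT water (log2 change 0.10, adjusted p = 0.0157), a call lost after rescaling (0.04, adjusted p = 0.277) and without DKO water replicate 1 (adjusted p = 0.0507). Both aldolases were called higher on nicotine too (Aldoc 0.33, Aldoa 0.20). The remaining water calls were small (Gpi1 0.125, adjusted p = 0.0373; Eno2 0.09, adjusted p = 0.0221; Pkm 0.09, adjusted p = 0.0487). They are named after their values were seen. Rescaling shifted the median of all genes by 0.05 on water, so these small calls depend on scaling.

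The pentose phosphate pathway, which takes glucose 6-phosphate for NADPH and ribose, had 5 of 8 genes called higher on nicotine and 6 of 8 on water, and none lower, with median log2 changes of 0.18 and 0.25. Pgd, which releases NADPH, averaged 18.9 ± 0.271 FPKM in DKO nicotine (SD, n = 3) and 14.4 ± 0.640 FPKM in WT nicotine (SD, n = 4), and 19.7 ± 1.30 FPKM in DKO water and 14.0 ± 0.723 FPKM in WT water (SD, n = 4 each). Taldo1, transaldolase, averaged 64.6 ± 1.49 FPKM in DKO water and 52.5 ± 1.57 FPKM in WT water. Tkt, transketolase, averaged 58.3 ± 1.95 FPKM in DKO water and 51.2 ± 0.415 FPKM in WT water.

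Glycogen genes moved in both directions: 7 of 14 were called higher and 3 lower on nicotine, and 7 higher and 1 lower on water. Phkg1, a catalytic subunit of phosphorylase kinase, averaged 8.18 ± 0.966 FPKM in DKO nicotine and 5.89 ± 0.320 FPKM in WT nicotine, and 8.99 ± 0.605 FPKM in DKO water and 5.15 ± 0.369 FPKM in WT water. Pygb, the brain glycogen phosphorylase, averaged 74.9 ± 5.11 FPKM in DKO water and 54.5 ± 1.47 FPKM in WT water. Pygm, the muscle form, was lower on nicotine, at 10.8 ± 1.41 FPKM in DKO nicotine and 13.8 ± 1.63 FPKM in WT nicotine. Ppp1r3c, a glycogen-targeting phosphatase subunit, averaged 17.8 ± 1.22 FPKM in DKO water and 13.2 ± 1.14 FPKM in WT water.

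At the entry of pyruvate to mitochondria, 2 of 14 genes were called higher and 1 lower on nicotine, and 1 higher and 2 lower on water. Pdp1, a phosphatase that activates pyruvate dehydrogenase, fell in both arms, to 31.3 ± 3.50 FPKM in DKO nicotine, against 43.5 ± 1.86 FPKM in WT nicotine, and to 27.2 ± 1.27 FPKM in DKO water, against 39.7 ± 1.62 FPKM in WT water (log2 change -0.53, adjusted p = 1.58e-06). Pdk2, a kinase that inactivates that enzyme, was called higher in both arms (log2 change 0.10 in each), Pdk1 higher on nicotine (0.18), and Pdk3 lower on water (-0.11). These kinase calls were near the threshold. After rescaling Pdk2 was at 0.03 on nicotine (adjusted p = 0.498) and 0.05 on water (0.302), and Pdk1 at 0.12 on nicotine (0.166); Pdk3 lost its call by limma voom (0.0918). Leaving out single libraries of the groups compared also ended these calls, with adjusted p up to 0.168 for Pdk2, 0.109 for Pdk1 and 0.117 for Pdk3.

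Among other hexokinases and regulators of fructose bisphosphate, 3 of 5 were called higher and 1 lower on nicotine, and 1 higher and 1 lower on water. Hk3, a hexokinase of myeloid cells, averaged 1.18 ± 0.233 FPKM in DKO nicotine and 0.496 ± 0.0530 FPKM in WT nicotine, and 1.09 ± 0.119 FPKM in DKO water and 0.410 ± 0.0813 FPKM in WT water. Hkdc1, a hexokinase domain protein, averaged 4.03 ± 0.893 FPKM in DKO nicotine and 5.75 ± 0.814 FPKM in WT nicotine, and 3.27 ± 0.293 FPKM in DKO water and 5.20 ± 0.476 FPKM in WT water. Pfkfb4, a relative of Pfkfb3, was called higher on nicotine (2.98 ± 0.238 FPKM in DKO and 2.20 ± 0.392 FPKM in WT). Hk2 and Hk3 were thus called higher, and Hkdc1 lower. Hk3 lay at 0.342 to 0.528 FPKM in WT water and 0.996 to 1.27 FPKM in DKO water. It passed the filter of 1 FPKM in 3 libraries only through DKO libraries, where it was high. Its call is therefore not separate support for a rise of scarce hexokinases.

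Of 5 other monocarboxylate carriers and their chaperones, 2 were called higher in each arm and none lower. Slc16a3 (MCT4), a lactate exporter, averaged 0.991 ± 0.148 FPKM in DKO nicotine and 0.702 ± 0.130 FPKM in WT nicotine, and 1.03 ± 0.126 FPKM in DKO water and 0.623 ± 0.0861 FPKM in WT water. It passed the filter of 1 FPKM in 3 libraries only through DKO libraries, where it was high (0.520 to 0.728 FPKM in WT water). Its calls therefore carry a selection. Bsg, basigin, the chaperone that carries Slc16a1 to the membrane, was called on water (245 ± 13.4 FPKM in DKO and 207 ± 9.91 FPKM in WT), and Slc16a6 on nicotine (4.45 ± 0.380 FPKM in DKO and 3.68 ± 0.367 FPKM in WT). The nicotine call of Slc16a3 was lost in 13 of 22 alternatives, 10 of them left-out libraries (adjusted p up to 0.188, without DKO nicotine replicate 1). That of Slc16a6 was lost in 7 of 22 (adjusted p 0.0993 after rescaling and up to 0.122, without DKO nicotine replicate 3). Of 3 other genes of the GLUT family that passed the filter none was called in either arm, Slc2a13 standing at 26.7 ± 1.78 FPKM in DKO water and 28.7 ± 0.993 FPKM in WT water. Slc2a13 was called lower on water after rescaling (-0.16, adjusted p = 0.0178) and without DKO water replicate 2 (-0.15, adjusted p = 0.0202). None of 5 genes of fructose metabolism was called by limma, beside the fall of the fructose carrier Slc2a5. Their most abundant gene was Akr1b3, aldose reductase, at 24.6 ± 3.11 FPKM in DKO water and 23.4 ± 1.45 FPKM in WT water. The only other lactate dehydrogenase tested, Ldhd, the D-lactate enzyme, was called higher in both arms (log2 change 0.25 in each). After rescaling neither Ldhd call held (adjusted p = 0.0949 on nicotine and 0.0542 on water), nor did the nicotine call without WT nicotine replicate 2 (0.0945) or the water call without WT water replicate 2 (0.0725).

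The hypoxia response list was read because Hk2, Slc2a1, Pfkfb3 and Ldha are known targets of hypoxia-inducible factors. On nicotine 6 of its 19 tested genes were called higher and 2 lower, and on water 4 higher and 2 lower. Among all genes tested, 24.6% were called higher and 11% lower on nicotine, and 25.5% and 12.4% on water. The shares of this list were thus near those of all genes. Vegfa, an angiogenic growth factor, fell to 11.4 ± 0.831 FPKM in DKO nicotine, against 15.5 ± 0.464 FPKM in WT nicotine, and to 10.9 ± 1.12 FPKM in DKO water, against 14.7 ± 0.378 FPKM in WT water. Bnip3, a mitophagy receptor, fell to 50.3 ± 1.44 FPKM in DKO water, against 62.8 ± 3.07 FPKM in WT water. Ndrg1, a stress-response gene, rose to 47.1 ± 3.21 FPKM in DKO water, against 35.8 ± 1.97 FPKM in WT water. The other genes of the list called higher on water were Vhl, Hif1a and Car12, named after their values were seen.

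**Figure D4:**
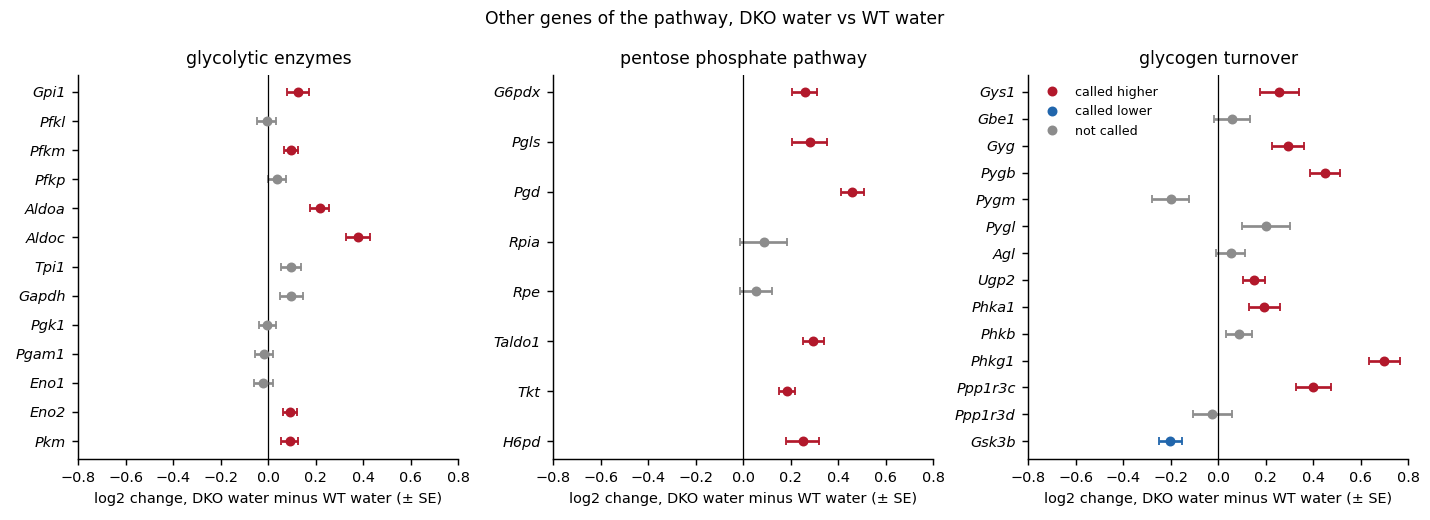
Log2 change on the log2(FPKM + 1) scale, DKO water minus WT water, of each tested gene of the lists of glycolytic enzymes, the pentose phosphate pathway and glycogen turnover; points are limma estimates with bars of 1 SE, and red (higher) and blue (lower) points have an adjusted p under 0.05. Called genes of the first 2 lists lay above 0, while glycogen genes were called on both sides, 7 higher and 1 lower.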

How the data were processed

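RNA-seq covered 15 libraries of mouse prefrontal forebrain cortex, put into 4 groups by their labels. Per the labels' protocols, TRIzol total RNA went into the TruSeq Stranded mRNA LT library kit. Per the submitters' processing notes the reads were placed on GRCm38.p6. Aligner, counting tool and strand setting: not given in the sources used here, and reads of overlapping or near-identical genes may therefore be shared. For every library the authors deposited a table of FPKM values. In tested genes each FPKM value stood for a whole number of reads (100% within 0.02 reads), from which the depth per library was recovered. Read numbers cover counting error only.

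Genes that reached 1 FPKM in 3 or more libraries, 12728 of 21878, were analysed as log2(FPKM + 1). A count model had been planned in case of counts. The deposited unit being FPKM, the analysis used limma (version 3.58.1, R 4.3.3) with an intensity trend. A single fit held the 15 libraries and 4 group means, and p-values were adjusted by Benjamini-Hochberg within each of 5 comparisons. The 4 within-library ratios were tested by exact two-sided permutation of genotype within drinking arm. The names of 27 genes stood as dates and were put back by gene number. RefSeq of that build held 21727 of the gene numbers and lacked 151. The fit was also run on simulated reads with known changes, and the outcome of that run is not given here. Plotting used Python 3.11.15, pandas 2.3.3, numpy 2.4.6 and matplotlib 3.10.9.

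The members, the 10 pathway lists and the 15 marker lists were chosen with earlier results of these data known. All members were named. From each pathway list up to 3 called genes with the smallest p were chosen for naming, or the most abundant where none was called. Of the genes so chosen, G6pdx, Pdha1 and Tigar are not described here. Lists overlap (Aldoc, Pdk1). Genes most like 4 members were ranked by Pearson r of deviations from group means among tested genes with a mean of at least 5 FPKM. Alternatives were a pseudocount of 0.1, no filter, a filter at 5 FPKM, no intensity trend, median-of-ratios rescaling, only the groups compared, a replicate block, limma voom on recovered reads and leaving out each library. Leaving out single nicotine libraries for Y-linked RNA and for Slc2a1 was chosen after seeing the data. Some targeted genes are not reported here.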

Additional observations from a re-analysis of the deposited data

Results flagged for a closer look

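The highest DKO water value of Slc2a3, the neuronal glucose carrier, stood apart from its group: replicate 4 was at 42.8 FPKM, and its gap to the nearest of the other 3 libraries was 0.885 of the group's range, which began at 40.6 FPKM. The highest WT nicotine value of Hk1, the main hexokinase of brain, stood apart likewise: replicate 4 was at 108.0 FPKM, with a gap of 0.89 of a range that began at 102 FPKM. These were 2 of 42 groups of 4 libraries checked, and chance alone sets apart the extreme library of about 1 in 20 groups. Neither library decided a call: Slc2a3 kept its call and Hk1 stayed without one in every leave-one-out fit.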

How the results depend on the processing

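Of 1125 values of members under an alternative setting, 1108 kept their side of the threshold, 9 gained a call and 8 lost one. No called value changed direction, while 44 uncalled ones changed sign, all at most 0.03 in size as reported (Ldhb on water, for example, was -0.02 to 0.03 without 1 library). The calls that changed are given beside each gene. With a filter at 5 FPKM, 3 members were called on water and 2 on nicotine, since Slc2a5 and Hk2 were not tested there. Leaving out 1 library at a time gave 4 to 5 called members in each genotype comparison. It gave 1 for nicotine in WT, and 0 for nicotine in DKO and for the interaction. Without DKO nicotine replicate 2, which lacked Y-linked RNA, 4 were called on nicotine. That fit cannot set the Y-linked difference aside. It leaves Y-linked RNA in all DKO nicotine and no WT nicotine library. Over all genes, nicotine in DKO gave 13 calls without the intensity trend, 0 with only the groups compared, 88 by limma voom and 1 to 57 without 1 library. The interaction gave 1 call with no filter, 1 with no intensity trend, 1 with a replicate block and 1 to 6 without 1 library. On water alone, Ldha relative to Ldhb differed by 0.058 (exact p = 0.257). Leaving out 1 library moved the 4 ratios to -1.45 to -1.35 (Slc2a5), -0.27 to -0.18 (Slc2a1), 0.08 to 0.13 (Ldha) and 0.60 to 0.65 (Hk2). Rescaling shifted the median of all genes by 0.05 on water and 0.06 on nicotine.

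Same-numbered libraries did not deviate together (r -0.02 to 0.07 on water and -0.21 to -0.04 on nicotine between genotypes, -0.05 to 0.16 in WT and -0.20 to 0.06 in DKO between treatments). These few r give no sign of pairing. They cannot exclude a pairing of small effect. With the replicate block 5 members were called on water, 4 on nicotine, 1 for nicotine in WT, 0 in DKO and 0 for the interaction (all genes, 4620, 3980, 19, 15 and 1). Among pathway genes named, the block ended the calls of Pdk3 on water (adjusted p = 0.0658) and of Pdk1 (0.0716), Pdk2 (0.0972), Slc16a3 (0.0838) and Slc16a6 (0.0675) on nicotine. Slc2a5 and Hk2 rest on few reads, so small differences in them were not detectable at this depth.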

Other observations

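The genes whose deviations from group means most resembled those of 4 members were ranked over the 15 libraries among 8524 genes. For Slc2a1 they were Arhgef3 (r = 0.85), the clock gene Per1 (0.83) and the glucocorticoid-responsive Tsc22d3 (0.81). Per1 averaged 17.7 ± 3.59 FPKM in WT nicotine and 16.6 ± 1.30 FPKM in WT water (SD, n = 4 each; limma adjusted p = 0.921). For Slc2a5 they were Ube2e2 (0.81), Ptk2b (0.8) and Stxbp6 (0.8), while Slc2a5 itself had r of -0.07 to 0.29 with the 14 microglia markers. For Hk2 they were Slc7a8 (0.84), Wasf2 (0.83) and Gcn1l1 (0.81), and for Pfkfb3 Gorasp1 (0.9), Cand1 (0.89) and Atrn (0.89). These are the highest of many r, and the libraries share depth and tissue composition, so they are descriptions.

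In DKO compared with WT, 24.6% of all genes tested were called higher and 11% lower on nicotine, and 25.5% and 12.4% on water. Beside these shares, which the mural cell markers were near, the marker lists not yet described were called as follows. Oligodendrocyte markers were called higher for 5 of 10 on nicotine and 6 of 10 on water, mural cell markers for 2 of 8 in each arm, choroid plexus and ependyma markers for 2 of 3 in each arm, and striatal markers for 0 of 7 on nicotine and 4 of 7 on water. Blood markers were called for 0 of 7 in each arm. Immediate early genes were called lower for 3 of 8 on nicotine and 8 of 8 on water, and clock genes for 3 of 11 and 8 of 11. Of 4 sex-linked genes, 4 were called higher in DKO than in WT on nicotine and 0 on water. Their part in the members' differences was not tested.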
